A study of Macaca fascicularis with 24 samples.

Results

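The thoracic aorta of old and young female cynomolgus macaques (Macaca fascicularis) was compared on 12 single-colour arrays, 6 per age group, of the 24 arrays in the series. Members were chosen by their titles, which give age group, sex and a replicate number. The mean age was 21.2 years in the old and 7.2 years in the young females, and no age of a single animal is used here. The animals carried no treatment or modified gene that the labels name. Old females 1 and 4 and young females 3 and 4 gave near-identical arrays, so each pair was averaged and counted once under its lower number. This left 5 old and 5 young female samples, 10 of the 21 samples of the series. The other 11 samples, 6 old males (mean age 20.0 years) and 5 young males (6.6 years), entered the same model and are given beside the females where a result calls for it. Whether the samples of a group came from separate animals is not stated, so p-values here take in the spread between samples, which may be technical. Whole aortic tissue was used, and in such a bulk sample fewer cells of a type and less RNA per cell cannot be told apart.

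The thoracic aorta is an elastic artery. Layers of smooth muscle cells lie between sheets of elastin, an endothelium lines the lumen, and an outer coat, the adventitia, holds fibroblasts, collagen, nerves, small vessels and, beyond them, fat. With age, elastic arteries are known to stiffen as elastin breaks up and collagen is laid down, and leukocytes can collect in their wall. The arrays carry probes designed for human transcripts. A level below is log2(intensity + 16) after quantile normalisation, and a difference is the mean of the old minus the mean of the young females on this scale, so that 1 stands for a doubling of intensity well above the offset. Errors written with ± are standard errors (SE) from limma unless SD is named. A count of genes at a p below 0.05 rests on limma's two-sided p before adjustment, from a fit over the samples of all 4 groups. Levels are listed in the order of samples 1, 2, 3, 5 and 6 of each group.

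Old females 2 and 6 and young female 3 stood apart from the other female samples and are called divergent here. Their arrays had a median correlation with all other arrays of 0.809 to 0.828, below the limit of 0.85 set here, against 0.878 to 0.931 on the other female arrays. Spiked-in controls were brighter on them (13.12 to 14.0, mean log2 intensity) than in the other 7 female samples (11.25 to 12.11), and they made up one end of the first principal component, which held 33.9% of the variance of the females. The actin control was read near its 3′ and near its 5′ end, and the log2 ratio of these signals, which rises with RNA degradation, had a median of 0.842 in the old and 0.307 in the young females. The age groups differed by 0.442 in this ratio (exact permutation test over samples, two-sided p = 0.270), by 0.38 in the spiked-in controls (exact p = 0.571) and by -0.039 in the median correlation (exact p = 0.230), with adjusted p-values of 0.405, 0.571 and 0.405 over these 3 measures, where 0.00794 is the smallest p that 5 against 5 samples allow. The part of the divergent samples in the results was not tested beyond the values with and without them, which are given below. Values without them also leave out the 3 male samples below the same limit. Differences and medians given for males keep every male sample. XIST, which is expressed from the inactive X chromosome of female cells, read 11.18 or more in each of the 10 samples, and the Y-linked RPS4Y1 ran from 6.20 to 8.34. Among the smooth muscle markers, ACTA2 ran from 13.89 to 15.15 in the old and 14.26 to 14.86 in the young females, above the median level in every sample.

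No transcript passed the test for a difference between old and young females. Of 22215 probe sets tested, 0 (0%) had a limma adjusted p below 0.05, and the smallest adjusted p was 0.488. At an unadjusted p below 0.05 there were 890 probe sets, or 4.01%, where 1111 are expected by chance. The old females were higher on 456 of them (2.05% of all tested) and lower on 434 (1.95%), which made 51.2% of them higher. This split moved with the scaling and the filter. Without quantile normalisation 63.2% were higher, and the median difference of all probe sets was 0.053. When only the brighter probe sets were tested, 36.4% were higher. Every old sample lay above every young sample on 67 probe sets (0.302%), and every old sample lay below every young one on 45 (0.203%). With 5 against 5 samples, full separation in either direction has a probability of 0.00794 by chance, so these counts lie below what chance gives. Leaving out old female 1 gave 1449 probe sets at an unadjusted p below 0.05 and 1 past the threshold, ZNF518A, and leaving out old female 5 gave 966 and 1, TNPO2. With 1 probe set per gene, the brightest, 449 of 11963 genes (3.75%) had a p below 0.05. Among the 6952 genes at or above the median level of 7.59, there were 195 (2.8%). The groups did not overlap on 14 of these brighter genes with the old females higher (0.201%) and on 11 with the old females lower (0.158%). The standard error of a difference had a median of 0.363 over all probe sets and of 0.292 over the brighter ones. Since nothing passed, the genes below are described by their values, and a higher or lower mean is not a call.

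Among the brighter genes, the 12 with the smallest p and a higher mean in old females included IRF4, AIM2 and SPP1, which are known from immune cells among others. For these and for the 12 lower genes, the limma adjusted p was 0.999. IRF4, a transcription factor of plasma cell differentiation, read 7.86, 7.95, 7.91, 8.59 and 8.30 in the old and 7.05, 7.31, 7.67, 7.48 and 7.51 in the young females. Every old sample lay above every young one, with a difference of 0.72 ± 0.25. AIM2, a sensor of DNA in the cytosol that sets off the inflammasome, read 8.66, 9.68, 9.91, 10.35 and 12.44 in the old and 8.70, 9.12, 9.13, 8.36 and 9.002 in the young females. Old female 1 lay among the young samples, old female 6 lay far above all others, and the difference was 1.34 ± 0.47. SPP1 encodes osteopontin, a secreted matrix protein made by macrophages, smooth muscle cells and bone cells. It read 10.35, 7.93, 10.71, 8.70 and 14.32 in the old and 7.43, 7.87, 8.85, 8.16 and 8.45 in the young females, so that old females 1, 3 and 6 lay above every young sample while old females 2 and 5 lay among them, with a difference of 2.25 ± 0.80. Without old female 6, the highest sample, the difference of SPP1 was 1.27. MAPK13, the delta form of the p38 stress kinases, read 7.26, 9.61, 8.26, 8.73 and 9.85 in the old and 7.86, 7.45, 7.10, 7.27 and 7.46 in the young females. Old female 1 lay among the young samples and the divergent old females 2 and 6 were highest, for a difference of 1.31 ± 0.44. TGFA, a ligand of the EGF receptor, read 7.87, 8.90, 8.16, 8.13 and 8.82 in the old and 5.61, 8.25, 7.34, 7.38 and 7.68 in the young females. Young female 2 lay above 3 of the old samples, young female 1 was far below the rest, and the difference was 1.13 ± 0.40.

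The other 7 genes with a higher mean act in lysosomes, in chromatin or in RNA processing, or have less settled roles. HPS4, a subunit of a complex that builds lysosome-related organelles, read 8.42, 9.24, 8.67, 8.79 and 8.71 in the old and 7.99, 8.05, 7.76, 8.04 and 8.21 in the young females. Its groups did not overlap, and the difference was 0.76 ± 0.22, with the smallest p of the 12. SPG11, a protein that helps to re-form lysosomes, read 9.48, 10.12, 9.88, 9.72 and 10.73 in the old and 9.26, 9.47, 9.49, 9.34 and 9.57 in the young females. All old samples but old female 1 lay above all young samples, with a difference of 0.56 ± 0.20. INTS13, a subunit of the Integrator complex that cuts nascent RNA, read 8.60, 8.66, 9.52, 8.47 and 9.03 in the old and 8.45, 8.09, 7.93, 8.45 and 7.995 in the young females. The groups did not overlap, old female 5 lay just above young females 1 and 5, with a difference of 0.67 ± 0.24. SINHCAF belongs to the SIN3 histone deacetylase complex and read 8.77, 10.02, 9.25, 9.88 and 10.79 in the old and 8.78, 9.37, 9.06, 8.87 and 8.65 in the young females. Old females 1 and 3 lay among the young samples, and the difference was 0.80 ± 0.28. PHIP, which binds insulin receptor substrates, read 11.66, 13.16, 12.06, 12.27 and 12.88 in the old and 11.58, 11.45, 11.60, 11.29 and 11.999 in the young females. The highest levels were those of the divergent old females 2 and 6, old female 1 lay among the young samples, and the difference was 0.82 ± 0.28. EEIG1, named for its early induction by estrogen, read 8.98, 9.36, 8.84, 9.57 and 9.84 in the old and 8.88, 8.59, 8.46, 8.84 and 8.45 in the young females. Old female 3 lay among the young samples, with a difference of 0.68 ± 0.21. GIN1, a gene derived from the integrase of a retrotransposon, read 8.29, 8.67, 8.65, 7.90 and 7.96 in the old and 7.80, 8.01, 6.70, 7.32 and 7.80 in the young females. Old females 5 and 6 lay below young female 2, young female 3 was lowest, and the difference was 0.77 ± 0.27.

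Lower means in old females with a small p included PLPP1, RHOC, PDE4D and FZD6. PLPP1 encodes a phosphatase at the cell surface that removes the phosphate of lysophosphatidic acid. It read 11.17, 10.91, 11.35, 11.03 and 10.59 in the old and 11.63, 11.61, 11.31, 11.62 and 11.87 in the young females, where the only overlap was old female 3 above young female 3, and the difference was -0.60 ± 0.17. Both of its probe sets had a p below 0.05. RHOC, a small GTPase that acts on the actin cytoskeleton, read 10.46, 9.76, 9.79, 10.34 and 9.58 in the old and 10.60, 10.74, 10.72, 10.62 and 10.36 in the young females. Old female 1 lay above young female 6, and all else was apart, for a difference of -0.62 ± 0.19. PDE4D, which breaks down cyclic AMP, read 8.71, 5.81, 8.53, 7.60 and 8.31 in the old and 9.46, 8.87, 9.01, 8.52 and 9.17 in the young females. The divergent old female 2 was far below the rest, young female 5 lay below old females 1 and 3, and the difference was -1.22 ± 0.40; 2 of the 4 PDE4D probe sets had a lower mean in old females. FZD6, a receptor for Wnt ligands, read 7.94, 8.09, 8.47, 7.52 and 4.97 in the old and 9.01, 8.51, 8.80, 8.88 and 8.51 in the young females. Every old sample lay below every young one, old female 6 by far, with a difference of -1.34 ± 0.47. PSMD3, a subunit of the cap that feeds proteins to the proteasome, read 9.20, 8.89, 8.25, 9.42 and 8.83 in the old and 9.38, 9.70, 9.22, 9.52 and 9.71 in the young females. Old female 5 lay above young females 1 and 3, and the difference was -0.58 ± 0.20.

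ITM2C, a membrane protein that binds the amyloid precursor protein, read 9.88, 8.80, 9.41, 9.73 and 9.86 in the old and 9.77, 10.25, 10.45, 10.09 and 10.41 in the young females. Young female 1 lay below old females 1 and 6, and the difference was -0.66 ± 0.21. RABL6, a protein related to the Rab GTPases, read 7.96, 6.46, 7.87, 7.80 and 5.32 in the old and 8.19, 7.98, 8.74, 8.26 and 8.02 in the young females. Its groups did not overlap, old females 1, 3 and 5 lay just under the young samples, the divergent old females 2 and 6 lay far under them, and the difference was -1.15 ± 0.39. ABHD11, a mitochondrial hydrolase, read 8.51, 8.58, 8.51, 7.84 and 6.70 in the old and 9.002, 9.11, 9.56, 8.51 and 8.88 in the young females. Young female 5 lay among the old samples and old female 6 was lowest, with a difference of -0.98 ± 0.34. MACO1, a protein of the endoplasmic reticulum membrane, read 9.83, 9.33, 9.16, 9.5 and 9.01 in the old and 9.90, 9.80, 9.73, 9.95 and 9.83 in the young females. Old female 1 alone lay among the young samples, and the difference was -0.47 ± 0.16. C2CD2 read 7.38, 5.80, 7.27, 7.55 and 6.73 in the old and 8.10, 7.92, 7.63, 7.78 and 8.12 in the young females, with no overlap, and SPATS2L read 10.91, 10.02, 10.85, 10.65 and 10.39 in the old and 11.27, 11.16, 10.66, 11.27 and 11.11 in the young females, where the divergent young female 3 lay among the old samples. Their differences were -0.96 ± 0.31 for C2CD2 and -0.53 ± 0.18 for SPATS2L. ANXA2P2 is a processed copy of the annexin A2 gene, so its probes may read annexin A2 transcripts too. It read 11.50, 10.47, 11.71, 11.18 and 12.84 in the old and 12.14, 13.13, 13.02, 13.28 and 13.28 in the young females, with old female 6 above young female 1, and a difference of -1.43 ± 0.49. The probe set for ANXA2 itself, which reads the parent gene, had a difference of -0.21 ± 0.18 (0.10 without the divergent samples).

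**Figure D1:**
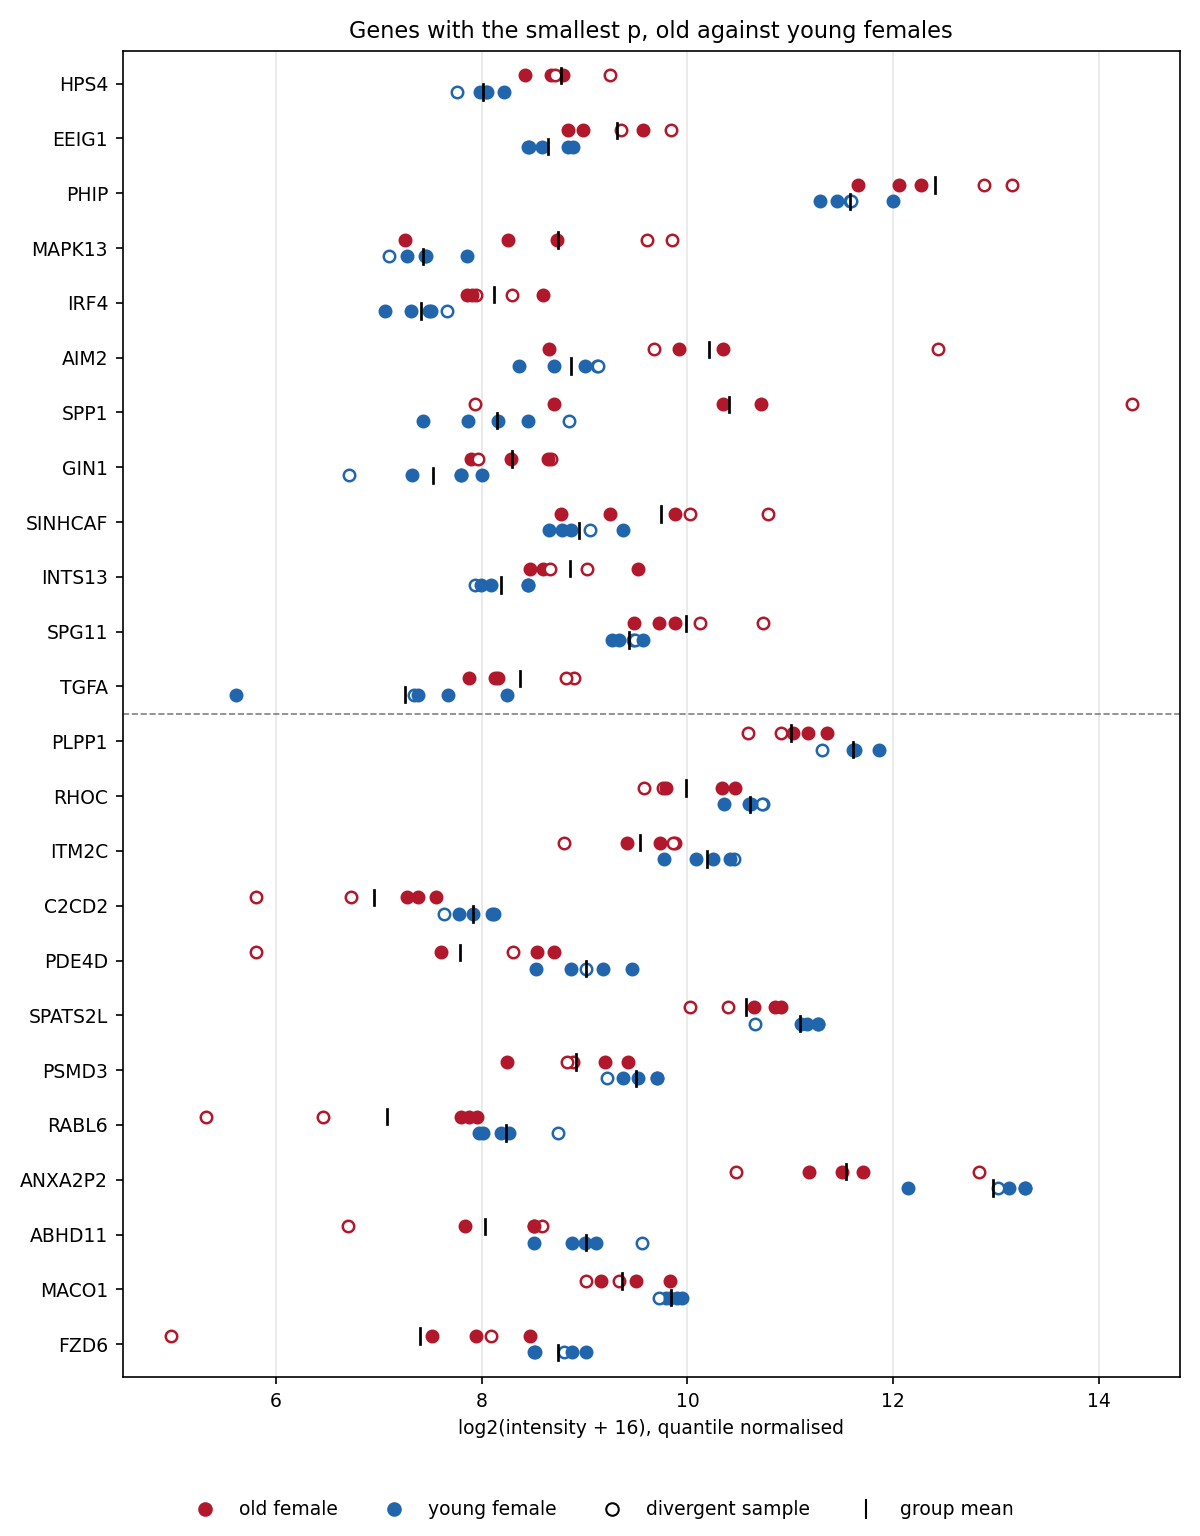
Level of the 12 brighter genes with the smallest p and a higher mean (above the dashed line) and the 12 with a lower mean (below it), as log2(intensity + 16) after quantile normalisation. Each point is 1 of 5 old (red) or 5 young (blue) female samples, open points are the divergent samples and bars are group means; HPS4, IRF4 and INTS13 lie wholly higher and C2CD2, RABL6 and FZD6 wholly lower in old females.

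Without the 3 divergent female samples and the 3 divergent male samples, all 24 of these genes kept the sign of their difference, and 17 of the 24 had a p below 0.05. They were chosen for a small p on samples that include the remaining ones, so this count is a description. Several differences shrank by more than 1.5 times. MAPK13 came to 0.57, AIM2 to 0.84, PHIP to 0.42, SINHCAF to 0.38, SPG11 to 0.28 and EEIG1 to 0.44. On the lower side RABL6 came to -0.23, C2CD2 to -0.58, PDE4D to -0.73, FZD6 to -0.75, ABHD11 to -0.59 and RHOC to -0.38. The remaining 12 moved less, among them SPP1 (1.94), IRF4 (0.78), HPS4 (0.56), INTS13 (0.62), PLPP1 (-0.50), PSMD3 (-0.62) and ANXA2P2 (-1.49).

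Further brighter genes had groups that did not overlap, and these were picked after their values were seen. Such genes were no more common than chance gives. Higher in every old sample were CX3CL1, a chemokine that tethers leukocytes to endothelium, COX15, which helps to assemble cytochrome oxidase, BABAM2, a member of a DNA repair complex, and GON4L, LMAN2L, ZNF324B, YJU2B, DUSP22, ATP11B, PCMTD2 and SNRNP40. CX3CL1 ran from 8.76 to 9.46 in the old and 8.19 to 8.64 in the young females, a difference of 0.64 ± 0.28. COX15 ran from 8.25 to 8.53 in the old and 6.85 to 8.18 in the young females and differed by 0.61 ± 0.29, while BABAM2 ran from 9.56 to 10.37 in the old and 9.23 to 9.49 in the young females and differed by 0.41 ± 0.17. Lower in every old sample were PSMC1, an ATPase of the proteasome cap, DVL1, which relays Wnt signals inside the cell, AK4, a mitochondrial adenylate kinase, CUL4A, the scaffold of a ubiquitin ligase, PPP4C, the catalytic subunit of a phosphatase, and RAB15, KATNA1 and PEX5. PSMC1 ran from 9.88 to 10.16 in the old and 10.18 to 10.66 in the young females and differed by -0.41 ± 0.16. DVL1 ran from 8.83 to 9.03 in the old and 9.17 to 9.67 in the young females and differed by -0.40 ± 0.21. AK4, with 7.39 to 7.55 in the old and 7.70 to 8.5 in the young females, differed by -0.56 ± 0.25, and PPP4C, with 8.18 to 9.08 in the old and 9.25 to 9.62 in the young females, by -0.72 ± 0.40. RAB15, a small GTPase, ran from 5.83 to 7.97 in the old and 8.18 to 8.41 in the young females, lowest in old female 6.

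Ranking the brighter genes by the size of the difference gave another set, and most of these sizes rested on a few samples. HBB, a subunit of haemoglobin and a sign of red cell RNA, read 10.48, 12.19, 12.97, 15.12 and 14.87 in the old and 9.97, 9.99, 9.12, 10.47 and 15.21 in the young females. Young female 6 was the highest of all, the other 4 young samples lay at or below the lowest old one, and the difference was 2.17 ± 1.14 (1.45 without the divergent samples). PPBP, a chemokine of platelets, read 7.60, 8.07, 8.94, 7.81 and 10.25 in the old and 5.25, 5.93, 7.82, 6.85 and 8.63 in the young females. Young females 3 and 6 lay among the old samples, with a difference of 1.64 ± 0.72. PFN1, which binds actin monomers, read 12.26, 9.27, 11.44, 11.09 and 11.13 in the old and 11.62, 8.5, 8.38, 9.05 and 9.52 in the young females. Old female 2 lay low and young female 1 lay high, and the difference was 1.62 ± 0.79. IGLC1 and GUSBP11 both name probe sets of the immunoglobulin lambda locus, where near-identical gene copies can share probes, so their assignment is uncertain. IGLC1 read 8.23, 12.87, 11.22, 9.20 and 14.98 in the old and 8.48, 8.65, 12.004, 8.77 and 11.24 in the young females, with a difference of 1.47 ± 1.01 (0.26 without the divergent samples). GUSBP11 read 7.99, 12.48, 11.14, 8.17 and 14.08 in the old and 8.48, 7.28, 11.63, 8.65 and 10.90 in the young females, with a difference of 1.38 ± 0.99 (0.27 without the divergent samples), and for both the high samples were old females 2, 3 and 6 and young females 3 and 6. CMTR1, which methylates the cap of messenger RNA, read 8.22, 8.47, 8.18, 8.26 and 8.37 in the old and 5.98, 5.78, 6.35, 8.22 and 8.42 in the young females. Its old samples were tight and matched young females 5 and 6, while young females 1, 2 and 3 were lower, and the difference was 1.35 ± 0.56. SPP1 and AIM2, given above, complete the 8 largest higher means.

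Among the largest lower means, HSPG2 encodes perlecan, the heparan sulfate proteoglycan of basement membranes, and read 10.39, 8.40, 5.5, 9.72 and 7.14 in the old and 10.06, 10.27, 9.03, 10.49 and 10.03 in the young females. Old females 3 and 6 were lowest, old female 2 was also below every young sample, old females 1 and 5 lay among the young, for a difference of -1.75 ± 0.89. VWF, the von Willebrand factor made by endothelium, read 9.46, 7.08, 10.60, 10.75 and 6.53 in the old and 9.08, 11.17, 10.82, 9.54 and 11.19 in the young females. The divergent old females 2 and 6 were lowest, and the difference of -1.48 ± 0.67 came to 0.020 without the divergent samples. HAND2-AS1, an RNA antisense to the HAND2 locus, read 9.04, 6.88, 5.11, 5.26 and 5.74 in the old and 9.65, 8.31, 6.63, 9.04 and 7.68 in the young females. Old female 1 stood with the young samples, young female 3 stood with the old, and the difference was -1.86 ± 0.82; details of whether these probes separate the strands were not given in the sources used here. ITGB1BP2, or melusin, a muscle protein that binds integrin beta 1, read 9.70, 5.99, 8.89, 7.95 and 5.70 in the old and 9.43, 9.71, 6.21, 10.12 and 9.97 in the young females. All 3 divergent samples were low, in both groups, and the difference was -1.44 ± 0.87. TMEM51 read 9.17, 8.14, 8.81, 5.86 and 6.87 in the old and 9.38, 8.93, 8.60, 9.36 and 9.24 in the young females and FASTKD5, which processes mitochondrial RNA, read 8.74, 4.86, 8.91, 7.85 and 5.44 in the old and 8.80, 8.58, 8.01, 8.49 and 8.29 in the young females. For TMEM51 old females 5 and 6 were lowest and the difference was -1.33 ± 0.54. For FASTKD5 the divergent old females 2 and 6 were lowest, and the difference of -1.28 ± 0.63 came to -0.041 without the divergent samples. ANXA2P2 and FZD6 are the other two of this set.

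**Figure D2:**
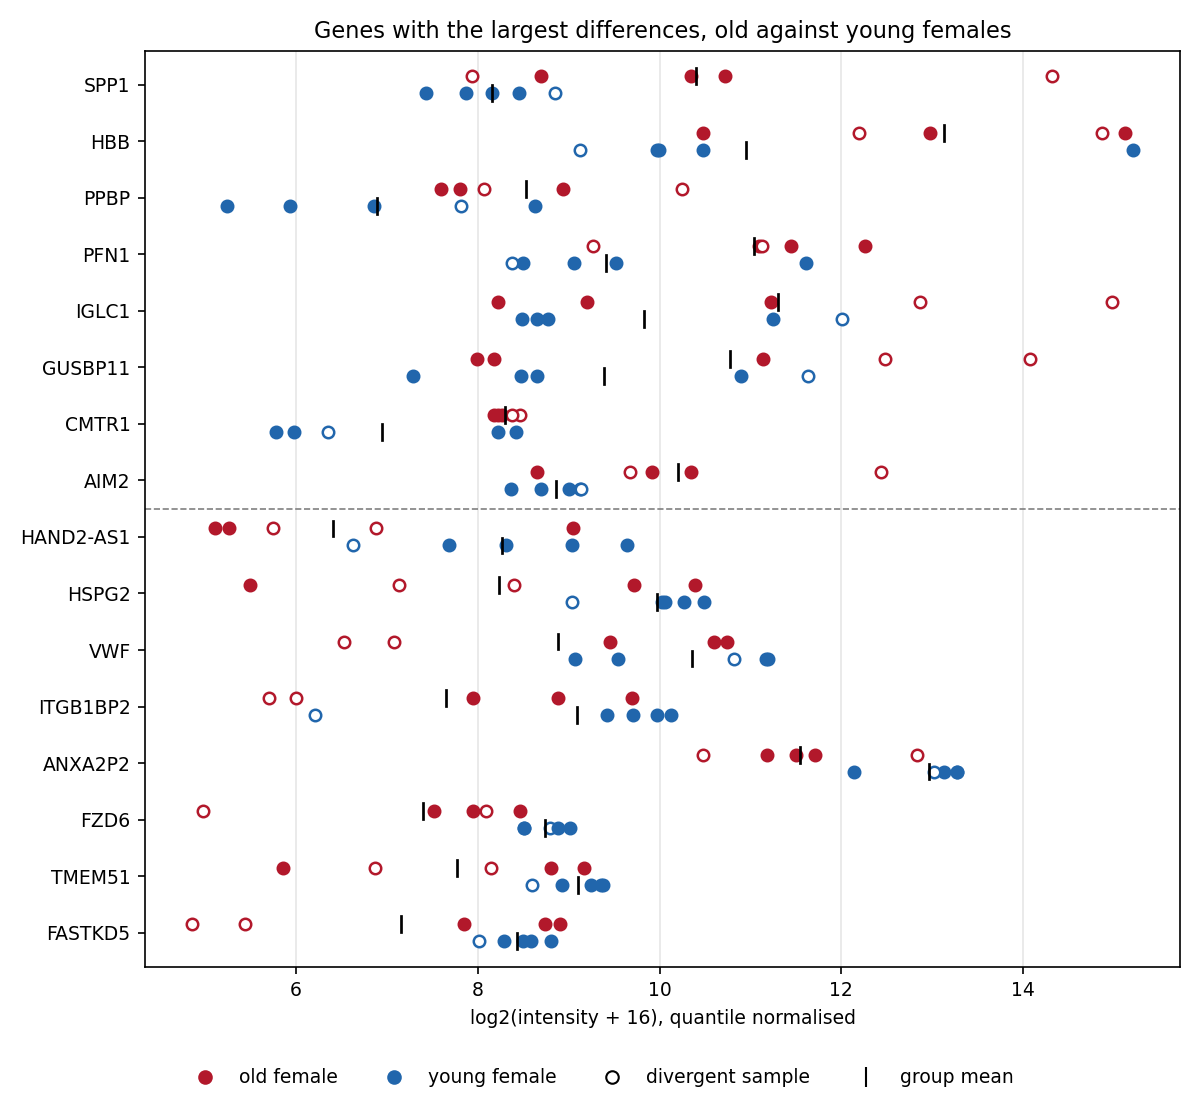
Level of the 8 brighter genes with the largest higher mean (above the dashed line) and the 8 with the largest lower mean (below it) in old females, as log2(intensity + 16) after quantile normalisation. Points are samples (red old, blue young, open divergent) and bars are group means; the groups overlap for every gene shown except FZD6, and VWF and FASTKD5 are lowest in the open old samples.

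Genes were then read in 69 lists of cell types, matrix, signalling, immunity, metabolism and stress. No list held a gene past the threshold. As the background for the counts that follow, 5950 of 11963 genes (49.7%) had a higher mean in old females, the median difference of all genes was -0.0016, and 3231 of the 6952 brighter genes were higher with a median of -0.022. Removing the divergent samples turned the sign of the median in 28 of the 69 lists, and its value without them is given beside each list median below. Where it is first described, a gene's difference is followed by its value without them if the 2 differ by more than 1.5 times. Over all genes, 3.75% had a p below 0.05. The groups did not overlap on 33 of the 11963 genes with the old females higher and on 22 with the old females lower. Without quantile normalisation, or with arrays centred on their median, the median of 19 lists changed sign, all of them within 0.11 of 0, so medians of that size carry no direction. Members of a list share cells and samples, so their number is not a number of independent observations.

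The contractile proteins of smooth muscle had lower means throughout. Of 20 members, 20 were lower in old females, with a median difference of -0.32 (-0.23 without the divergent samples) and none at a p below 0.05. The list's mean level ran from 12.13 to 13.76 over the old and 12.52 to 13.78 over the young females, so the groups overlapped. With the actin ratio as a covariate the median was -0.19, without young female 3 it was -0.51, and with every array as its own sample it was -0.10. Its lowest value in each group was that of a divergent sample. ACTG2, an actin of smooth muscle, read 13.70, 12.68, 13.68, 12.35 and 11.63 in the old and 13.27, 14.20, 12.70, 14.01 and 13.69 in the young females. Old females 5 and 6 were lowest, and the difference was -0.76 ± 0.37. MYH11, the smooth muscle myosin heavy chain, read 14.46, 13.99, 14.20, 13.31 and 12.84 in the old and 15.07, 13.95, 13.27, 14.53 and 14.54 in the young females, with old females 5 and 6 and young female 3 lowest and a difference of -0.51 ± 0.31. MYL9, a regulatory myosin light chain, differed by -0.63 ± 0.41, and ACTN1, an actin crosslinker of adhesion sites, by -0.55 ± 0.34. TAGLN, an actin-binding protein of smooth muscle, ran from 13.99 to 15.55 in the old and 14.66 to 15.65 in the young females and differed by -0.36 ± 0.25 (-0.17 without the divergent samples). ACTA2, the smooth muscle actin, differed by -0.12 ± 0.19 (-0.22 without the divergent samples), and its 2 probe sets had opposite signs. In males the list's median was -0.045, with 8 of its members higher in the old.

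The cytoskeletal linkers around the contractile apparatus had 9 of 12 members lower and a median of -0.26 (-0.15 without the divergent samples). CSRP1, a LIM protein of smooth muscle, differed by -0.27 ± 0.22 and ZYX, a LIM protein of focal adhesions, by -0.37 ± 0.21. Integrins and focal adhesion proteins had 21 of 24 members lower with a median of -0.15 (-0.13 without the divergent samples). ITGB1, the integrin subunit shared by most matrix receptors, read 13.74, 13.33, 13.71, 13.81 and 13.44 in the old and 13.97, 13.80, 13.82, 13.96 and 13.98 in the young females. Young female 2 lay within the range of the old samples, and the difference was -0.30 ± 0.13 (-0.18 without the divergent samples), with 2 of its 5 probe sets lower. ITGAV differed by -0.38 ± 0.22 and ITGA9 by -0.60 ± 0.34, while ITGA3, a laminin receptor that was dim here, had a higher mean (1.07 ± 0.42, 0.61 without the divergent samples). Potassium and calcium channels, which set the tone of the muscle, had 11 of 14 members lower, with a median of -0.35 that came to -0.021 without the divergent samples and to -0.069 with the actin ratio as a covariate. KCNMB1, the beta subunit of the large-conductance potassium channel of smooth muscle, ran from 9.97 to 11.54 in the old and 9.98 to 11.69 in the young females, with the divergent samples lowest, and CACNA1C, the L-type calcium channel, differed by -0.57 ± 0.45.

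Regulators of tone were mixed. Calcium stores and pumps had 7 of 13 members higher with a median of 0.12 (0.13 without the divergent samples). ATP2B1, a calcium pump of the plasma membrane, had a higher mean (0.55 ± 0.26) and ATP2B4, its relative, a lower one (-0.28 ± 0.15). Phosphodiesterases had 9 of 12 lower with a median of -0.12 (-0.10 without the divergent samples), where PDE4D alone had a p below 0.05. The list of nitric oxide, cyclic GMP and endothelin signalling was even, with 9 higher and 8 lower. Its member NOS2, the inducible nitric oxide synthase, was dim, ran from 5.04 to 6.49 in the old and 5.32 to 7.52 in the young females and differed by -1.07 ± 0.47 (-0.71 without the divergent samples). The renin-angiotensin list was near even, with 5 of 9 lower.

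Of the matrix lists, that of elastic fibres had the lowest median. The list of elastin, fibrillin and elastic fibre assembly had 19 of 21 members lower with a median of -0.30, which came to -0.11 without the divergent samples, to -0.020 with the actin ratio, a sign of RNA degradation, as a covariate, and to -0.54 without young female 3. The list's mean level ran from 9.78 to 11.06 over the old and 10.37 to 11.19 over the young females. In males, with their divergent samples kept, none of its members had a higher mean in the old and the median was -0.35. The male median without those samples is not given here. FBN1, fibrillin 1, the main protein of microfibrils, read 12.89, 11.96, 13.65, 12.37 and 11.11 in the old and 12.99, 13.51, 13.41, 13.06 and 12.77 in the young females. The divergent old females 2 and 6 were lowest, old female 3 was the highest of all, and the difference was -0.75 ± 0.40, or -0.11 without the divergent samples. FBLN1, fibulin 1, which binds elastic fibres and basement membranes, read 10.60, 8.68, 11.61, 10.21 and 9.35 in the old and 11.38, 11.43, 11.44, 10.83 and 11.34 in the young females, again lowest in old females 2 and 6, with a difference of -1.19 ± 0.53 (-0.44 without the divergent samples). ELN, elastin, read 13.09, 12.81, 11.32, 13.85 and 11.12 in the old and 12.41, 12.89, 11.37, 14.03 and 14.01 in the young females. Each group held high and low samples, with old females 3 and 6 and young female 3 lowest, and the difference was -0.50 ± 0.63. LOX, which crosslinks elastin and collagen, differed by -1.01 ± 0.68 and by -0.17 without the divergent samples. MFAP2, a protein of microfibrils, differed by -0.61 ± 0.40 (-0.27 without the divergent samples).

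Fibrillar collagens were split, with 5 of 9 lower and a median of -0.11 that turned to 0.081 without the divergent samples. COL1A1, a chain of type I collagen, read 13.41, 13.65, 15.28, 13.19 and 13.29 in the old and 12.68, 14.82, 15.51, 13.88 and 14.20 in the young females. Old female 3 and young females 2 and 3 were highest, young female 1 was lowest, and the difference was -0.45 ± 0.41 (0.066 without the divergent samples). COL3A1, type III collagen, read 13.10, 13.39, 15.05, 12.95 and 13.18 in the old and 13.12, 14.41, 14.81, 14.26 and 14.15 in the young females. Old female 3 was the highest of all 10, while the other old samples lay at or below most of the young ones, and the difference was -0.62 ± 0.33 (-0.29 without the divergent samples). COL1A2 differed by -0.41 ± 0.24 (-0.040 without the divergent samples) and COL5A2 by -0.35 ± 0.30 (0.028 without the divergent samples).

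Basement membrane collagens and laminins had 12 of 18 members lower with a median of -0.21 (-0.078 without the divergent samples). At a p below 0.05, 3 were lower and 1 was higher, 22.2% of the list against 3.75% of all genes. LAMC1, the gamma chain of most laminins, read 10.97, 10.73, 10.72, 10.12 and 10.20 in the old and 10.997, 11.09, 11.36, 11.001 and 10.84 in the young females. Young female 6 lay below old female 1, the rest of the young lay above the rest of the old, and the difference was -0.51 ± 0.18. COL4A2, a chain of type IV collagen, read 11.54, 12.26, 12.68, 10.90 and 10.46 in the old and 11.93, 12.64, 12.77, 12.51 and 12.56 in the young females, with old females 1, 5 and 6 below all young samples and a difference of -0.92 ± 0.33. COL4A1, its partner chain, whose gene shares a promoter region with COL4A2, differed by -0.54 ± 0.25 (-0.32 without the divergent samples). COL4A3, a chain of another type IV network, had a higher mean (1.22 ± 0.54), with 6 of its 7 probe sets higher.

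The smaller matrix lists gave medians near that of all genes or moved with the divergent samples. Collagen processing enzymes and chaperones had 12 of 19 lower (median -0.22, -0.032 without the divergent samples), led by P4HA1, a prolyl hydroxylase (-0.47 ± 0.20, -0.17 without the divergent samples), BMP1, which trims procollagen (-0.70 ± 0.37, -0.19 without the divergent samples), and SERPINH1, a chaperone of collagen (-0.72 ± 0.42, -0.20 without the divergent samples). Collagen VI and fibril-associated collagens had 8 of 12 lower with a median of -0.20 (-0.063 without the divergent samples), and COL6A3 differed by -0.94 ± 0.52 (-0.11 without the divergent samples). Small leucine-rich proteoglycans were near even, with BGN, biglycan, at -0.69 ± 0.37 (-0.37 without the divergent samples). Aggrecan, versican and their partners were even, with 8 of 16 higher and a median of -0.0022 (0.065 without the divergent samples). ACAN, aggrecan, read 9.24, 8.96, 8.47, 9.36 and 8.60 in the old and 7.75, 7.47, 7.63, 9.997 and 8.82 in the young females. Young female 5 was the highest of all 10 samples, young females 1, 2 and 3 were the lowest, and the difference was 0.59 ± 0.53. In males the difference of ACAN was 3.10 ± 0.50.

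Matricellular proteins, which sit in the matrix and act on cells, had 9 of 17 higher, SPP1 at the head. SPARC, which binds collagen, had a lower mean (-0.60 ± 0.30; -0.19 without the divergent samples), as did THBS4, a thrombospondin (-0.83 ± 0.43). Among matrix metalloproteinases and their inhibitors, MMP9, a gelatinase of leukocytes, read 9.10, 8.47, 9.02, 9.70 and 11.16 in the old and 8.74, 8.23, 8.36, 8.91 and 8.44 in the young females. Old female 6 was far above the others, and the difference was 0.95 ± 0.42. TIMP3, an inhibitor bound to matrix, differed by -0.60 ± 0.31. The whole list had 9 of 19 higher and a median of -0.15 (-0.11 without the divergent samples). Cathepsins and lysosomal proteins had 13 of 22 higher with a median of 0.057 (0.21 without the divergent samples), while CTSF, a cysteine cathepsin, had a lower mean (-0.40 ± 0.18, -0.61 without the divergent samples). In the list of calcification regulators (8 of 17 higher), ENPP1, which makes the mineral inhibitor pyrophosphate, read 10.96, 10.46, 10.62, 10.83 and 10.20 in the old and 10.87, 11.28, 10.30, 11.94 and 11.28 in the young females, so that the divergent young female 3 lay among the old samples and old female 1 lay above young female 1. Its difference was -0.52 ± 0.23.

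The IGF list, of insulin-like growth factors, their receptors and binding proteins, had 13 of 14 members lower with a median of -0.34 (-0.15 without the divergent samples), and 2 of them (14.3%) had a p below 0.05, against 3.75% of all genes. IGF2R, which carries IGF2 to lysosomes, read 12.44, 12.11, 12.04, 11.40 and 11.40 in the old and 12.87, 12.86, 12.03, 12.83 and 12.56 in the young females. Apart from the divergent young female 3, every young sample lay above every old one, and the difference was -0.75 ± 0.28, although 1 of its 2 probe sets had the opposite sign. IGF1 read 10.07, 9.14, 12.08, 9.49 and 9.32 in the old and 10.20, 11.14, 12.49, 10.66 and 10.84 in the young females. Old female 3 and young female 3 were highest, the other old samples lay below the other young ones, and the difference of -1.04 ± 0.50 came to -0.16 without the divergent samples. All 4 IGF1 probe sets had a lower mean. INSR, the insulin receptor, differed by -0.52 ± 0.30 and IGFBP7, a secreted binding protein of the vessel wall, by -0.60 ± 0.46 (-0.16 without the divergent samples).

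TGF beta genes had 15 of 21 lower (median -0.095, 0.032 without the divergent samples), but its ligands differed in direction. TGFB3 read 9.66, 9.94, 9.5, 10.22 and 9.79 in the old and 9.63, 9.28, 8.80, 9.42 and 9.44 in the young females, with a higher mean in old females (0.51 ± 0.20). TGFB2 read 8.96, 8.45, 8.89, 8.99 and 8.41 in the old and 9.56, 9.04, 8.88, 10.10 and 9.91 in the young females, with a lower mean (-0.76 ± 0.36). For TGFB3 the only overlap was young female 1 above old female 3, and for TGFB2 it was young female 3 among the old samples. BMP signalling and ID genes had 12 of 19 lower (median -0.093, 0.11 without the divergent samples), among them BMPR2, a BMP receptor of the vessel wall (-0.45 ± 0.21), and CHRD, a secreted BMP antagonist (-0.89 ± 0.38, -0.47 without the divergent samples). The Notch list had 9 of 12 lower with a median of -0.29 (-0.17 without the divergent samples). JAG1, a Notch ligand, read 12.31, 10.77, 11.58, 11.91 and 9.79 in the old and 12.26, 12.28, 11.67, 11.96 and 12.10 in the young females, lowest in old females 2 and 6, with a difference of -0.78 ± 0.36 (-0.22 without the divergent samples); RBPJ, the DNA-binding factor of the pathway, had a higher mean (0.33 ± 0.16). The Wnt list had 15 of 24 higher and a median of 0.059 (0.039 without the divergent samples). FZD6 and DVL1 were the 2 of its members whose groups did not overlap, and both were lower. Over all genes, 22 of 11963 were lower without overlap, and FZD6 had been chosen above for its small p.

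Circadian clock genes had 9 of 15 lower and a median of -0.33, which came to -0.055 without the divergent samples. The 11 brighter members were even, with 6 lower, 5 higher and a median of -0.0057, so the median of the whole list rested on dim members. Repressors of the clock were among the lower ones. CRY1 read 10.17, 10.05, 10.59, 9.47 and 8.61 in the old and 10.70, 11.12, 10.04, 10.99 and 10.84 in the young females. Young female 3 lay among the old samples, the other young samples lay above all of them, and the difference was -0.96 ± 0.40, with -0.68 ± 0.38 in males. PER2 read 10.01, 9.998, 9.46, 8.999 and 9.57 in the old and 9.82, 10.46, 10.41, 10.41 and 10.09 in the young females, with old females 3, 5 and 6 below all young samples and a difference of -0.63 ± 0.29, against -0.79 ± 0.27 in males. NFIL3, a repressor of clock output, differed by -0.45 ± 0.24, while BHLHE41, a repressor in a side loop of the clock, had a higher mean (0.53 ± 0.31). Times of day of tissue collection were not given in the sources used here. Estrogen and progesterone receptors and responsive genes were even, with 14 of 26 higher and a median of 0.036 (0.12 without the divergent samples). ESR1, estrogen receptor alpha, read 9.98, 8.89, 9.52, 10.12 and 9.18 in the old and 9.55, 9.07, 8.31, 10.29 and 9.45 in the young females, with no order between the groups and a difference of 0.20 ± 0.37; 5 of its 9 probe sets were higher. ESR2, estrogen receptor beta, ran from 7.03 to 7.69 in the old and 7.40 to 8.39 in the young females and differed by -0.51 ± 0.29. HSD17B4, an enzyme that acts on estradiol, differed by 0.60 ± 0.31. Glucocorticoid targets had 10 of 17 lower (median -0.18, -0.064 without the divergent samples), with KLF9 at -0.41 ± 0.25. Immediate early genes had 17 of 23 higher and a median of 0.20, which turned to -0.075 without the divergent samples. EGR3 read 8.96, 9.48, 8.98, 9.16 and 11.92 in the old and 8.24, 8.12, 9.25, 8.34 and 8.95 in the young females and FOSB read 4.97, 7.73, 5.25, 5.60 and 11.45 in the old and 5.10, 5.21, 4.99, 5.28 and 5.31 in the young females, and for both old female 6 was far above all others.

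Several immune lists had a higher median in old females, and old female 6 held the highest level of most of those shown here. MHC class II genes, which present antigen, had 12 of 13 members higher with a median of 0.48 (0.26 without the divergent samples). Without old female 6 the median was 0.18. The list's mean level ran from 8.90 to 11.54 over the old and 8.94 to 9.97 over the young females. These genes are near copies of each other and the probes were designed on human sequence, so which member a probe set reads is uncertain. HLA-DRA read 11.08, 11.68, 12.38, 13.69 and 14.47 in the old and 10.80, 11.88, 10.99, 11.84 and 12.95 in the young females. Old females 5 and 6 lay above all young samples, the other old samples lay among them, and the difference was 0.97 ± 0.55 (0.52 without the divergent samples). CD74, the invariant chain of class II, read 9.83, 11.42, 10.44, 12.26 and 13.33 in the old and 9.88, 11.02, 10.51, 10.69 and 10.66 in the young females and differed by 0.90 ± 0.49 (0.27 without the divergent samples). HLA-DQB1 differed by 0.96 ± 0.57 (0.40 without the divergent samples), and HLA-DOB, which is dim here, by 1.38 ± 0.64 (0.60 without the divergent samples).

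Markers of B cells and plasma cells had the largest list median, 0.69, with 15 of 17 higher, and it came to 0.11 without the divergent samples. Of the 17 members, 10 were dim. The list's mean level ran from 6.53 to 9.51 over the old and 6.43 to 7.41 over the young females. IGHM, the heavy chain of IgM, read 7.61, 8.84, 7.98, 8.22 and 10.58 in the old and 7.94, 7.66, 8.42, 7.43 and 8.30 in the young females. Old females 2 and 6 were highest, the other old samples lay among the young, and the difference was 0.69 ± 0.41 (0.10 without the divergent samples). MZB1, a chaperone of antibody-secreting cells, read 6.21, 8.68, 7.10, 6.66 and 11.10 in the old and 6.45, 5.91, 7.99, 6.002 and 6.39 in the young females, and CR2, a complement receptor of B cells, read 4.72, 5.01, 5.04, 5.07 and 9.13 in the old and 4.73, 5.18, 4.69, 4.70 and 4.73 in the young females. For both, old female 6 was far above the rest. Their differences were 1.40 ± 0.69 (0.47 without the divergent samples) for MZB1 and 0.99 ± 0.55 (0.11 without the divergent samples) for CR2. IRF4, given above, was the only member whose groups did not overlap, and its difference was 0.78 without the divergent samples.

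Macrophage and myeloid markers had 12 of 18 higher with a median of 0.17 (0.34 without the divergent samples) and a mean level of 7.48 to 9.29 over the old and 8.11 to 8.70 over the young females. CD163, a scavenger receptor of tissue macrophages, read 9.03, 7.38, 10.58, 8.94 and 9.13 in the old and 9.10, 9.72, 9.86, 9.03 and 9.37 in the young females, with a difference of -0.40 ± 0.38 (0.21 without the divergent samples). Old female 3 was highest and old female 2 lowest. TYROBP, an adaptor of myeloid receptors, read 9.13, 8.65, 10.38, 9.80 and 10.50 in the old and 9.22, 9.38, 9.13, 9.08 and 9.52 in the young females, where old females 3, 5 and 6 were above all young samples, for a difference of 0.42 ± 0.30. AIF1 differed by 1.08 ± 0.73 (0.60 without the divergent samples) and ITGAM, an integrin of myeloid cells, by 0.55 ± 0.39. FCGR1A, an Fc receptor read by a dim probe set, went the other way, from 4.51 to 5.30 in the old and 4.82 to 6.78 in the young females, with a difference of -1.31 ± 0.44. T and NK cell markers were dim for 19 of 21 members and had a median of 0.053 (-0.14 without the divergent samples). GZMK, a granzyme, was the member with a p below 0.05 (1.26 ± 0.48, 0.84 without the divergent samples).

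Chemokines and their receptors had 17 of 25 higher, a median of 0.47 (0.31 without the divergent samples) and 3 members (12%) at a p below 0.05, against 3.75% of all genes. These were CX3CL1, given above, and the neutrophil chemokines CXCL1 (1.12 ± 0.42) and CXCL3 (0.80 ± 0.38), both dim. With the actin ratio as a covariate the list's median came to 0.27. Dim members numbered 14, the brighter ones had a median of 0.31, and in males the list's median was -0.19. CXCR4, the receptor of CXCL12, read 8.33, 9.71, 8.95, 8.93 and 12.31 in the old and 8.59, 8.61, 8.79, 8.53 and 8.88 in the young females. Old female 6 lay far above the rest, and the difference of 0.97 ± 0.49 came to 0.084 without the divergent samples. Interferon-stimulated genes had 20 of 27 higher with a median of 0.21 (0.30 without the divergent samples), and in males 23 were higher. Of these members 10 were dim. The 17 brighter members had 12 higher and a median of 0.090, a size that carries no direction here. ISG15 ran from 7.35 to 8.16 in the old and 6.15 to 7.44 in the young females and differed by 0.96 ± 0.47, and IFIT1 differed by 1.32 ± 0.60; both were dim. Subunits of the NADPH oxidases, which make superoxide, had 10 of 12 higher with a median of 0.28 (0.36 without the divergent samples). Dim members numbered 6, the brighter ones had a median of 0.20, and in males the list's median was 0.0026. NCF1 had non-overlapping groups, 5.21 to 6.84 in the old and 4.72 to 5.18 in the young females, at a dim level, with a difference of 0.67 ± 0.32 (0.38 without the divergent samples). RAC2, the Rac GTPase of blood cells, differed by 1.01 ± 0.57 (0.44 without the divergent samples). Adhesion and NF-kB response genes had 13 of 21 higher (median 0.13, 0.13 without the divergent samples, 0.037 with the actin ratio as a covariate), led by TNFAIP3, an inhibitor of NF-kB signalling (0.81 ± 0.41). MHC class I genes (median 0.048, 0.066 without the divergent samples) and complement genes (median -0.029, 0.12 without the divergent samples) lay near all genes.

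Markers of other cells of the wall and of tissue around it were read as well. Endothelial genes had 14 of 23 higher with a median of 0.039 (0.14 without the divergent samples) and a mean level of 7.76 to 8.81 over the old and 7.72 to 9.10 over the young females. PECAM1, an adhesion protein of endothelium, read 8.61, 11.06, 9.76, 9.04 and 10.05 in the old and 8.65, 10.34, 11.10, 8.85 and 10.41 in the young females. Its highest samples were old female 2 and young female 3, and the difference was -0.17 ± 0.50 (-0.42 without the divergent samples), while VWF, given above, had the lower mean. ENG, endoglin, which helps endothelial cells to bind TGF beta ligands, differed by -0.47 ± 0.24 and EGFL7 by 1.18 ± 0.55 (0.77 without the divergent samples). Coagulation and fibrinolysis genes had a median of -0.056 (0.38 without the divergent samples), with PLAUR, the urokinase receptor, at 0.82 ± 0.36. Fibroblast and adventitial markers had 10 of 14 lower (median -0.14, 0.084 without the divergent samples), with CD34 at -0.39 ± 0.17 and PDGFRA at -0.53 ± 0.38 (-0.0092 without the divergent samples). Pericyte markers had 7 of 11 lower (median -0.31, 0.086 without the divergent samples). CD248, a surface protein of mural cells and fibroblasts, read 10.11, 9.37, 10.43, 9.96 and 9.97 in the old and 10.13, 10.96, 11.23, 10.51 and 10.36 in the young females, with a difference of -0.67 ± 0.26 (-0.32 without the divergent samples). RGS5 differed by -0.51 ± 0.40 (-0.33 without the divergent samples).

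White adipocyte genes had a mean level of 7.72 to 9.94 over the old and 7.99 to 9.91 over the young females, 15 of 21 members higher and a median of 0.14, which turned to -0.12 without the divergent samples and to -0.26 with the actin ratio as a covariate. The same list had a median of 1.16 in males. ADIPOQ, adiponectin, ran from 6.26 to 7.23 in the old and 4.61 to 7.02 in the young females on a dim probe set, with a difference of 0.87 ± 0.56. Brown fat genes were near even (median 0.0096, -0.18 without the divergent samples) with a mean level of 7.48 to 8.85 over the old and 7.12 to 9.13 over the young females. Erythroid genes had 6 of 8 higher (median 0.28, 0.19 without the divergent samples). Schwann cell and neuronal markers (median 0.12, -0.060 without the divergent samples) and markers of skeletal and cardiac muscle (median 0.0088, -0.19 without the divergent samples) were mostly dim, at 9 of 16 and 14 of 21 members. TNNT1, a troponin of slow muscle, was dim and differed by 1.23 ± 0.45 (0.81 without the divergent samples). The part of these cell types in the differences above was not tested.

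Energy metabolism was close to the background in females. Oxidative phosphorylation had 31 of 58 members higher with a median of 0.018 (0.059 without the divergent samples), the tricarboxylic acid cycle 12 of 18 with 0.11 (0.023 without the divergent samples), fatty acid oxidation 11 of 21 with 0.0035 (0.022 without the divergent samples), and glycolysis 6 of 19 with -0.10 (0.028 without the divergent samples). Each had 0 members at a p below 0.05 in females. In males the medians of these lists, in the same order, were 0.28, 0.24, 0.30 and 0.22. Genes of cholesterol efflux were even, with 8 of 16 higher. Cholesterol synthesis had a median of 0.055 (-0.11 without the divergent samples), with MVD, an enzyme of the mevalonate pathway read by a dim probe set, at -0.98 ± 0.40. Lipid phosphate and sphingolipid enzymes had 14 of 17 lower (median -0.13, -0.038 without the divergent samples), PLPP1 first among them. ENPP2, the enzyme that makes lysophosphatidic acid, read 8.16, 10.38, 10.72, 9.63 and 11.29 in the old and 7.69, 9.58, 10.41, 8.97 and 9.29 in the young females. Old female 1 and young female 1 were lowest, and the difference was 0.85 ± 0.65.

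Heat shock proteins had 19 of 23 lower with a median of -0.22 (-0.13 without the divergent samples), among them HSP90AB1, a constitutive chaperone (-0.33 ± 0.21), and BAG3, a co-chaperone of muscle (-0.40 ± 0.26, -0.13 without the divergent samples). With the actin ratio as a covariate the median came to -0.032. Proteasome subunits had 26 of 33 lower, with a median of -0.15 that turned to 0.045 without the divergent samples. PSMD3 and PSMC1, given above, came to -0.62 and -0.35 without those samples. PSMC3, an ATPase of the cap, read 10.60, 9.90, 10.26, 10.53 and 8.41 in the old and 11.01, 10.50, 9.98, 10.92 and 10.89 in the young females, lowest in old female 6, and differed by -0.72 ± 0.40 (-0.37 without the divergent samples). Autophagy genes were even (median -0.022, 0.048 without the divergent samples), as were genes of the endoplasmic reticulum stress response (median -0.025, 0.066 without the divergent samples).

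Cytosolic ribosomal proteins had 29 of 40 members higher with a small median of 0.072 (0.036 without the divergent samples), which came to -0.021 with arrays centred on their median, and 13 were higher in males. Mitochondrial ribosomal proteins were even (median -0.024, 0.11 without the divergent samples), with MRPS31 at 0.56 ± 0.20 (0.35 without the divergent samples) and MRPL17 at 0.39 ± 0.17. Among translation factors (median 0.025, 0.017 without the divergent samples), EIF4G1, the scaffold of the cap-binding complex, read 10.39, 9.73, 9.91, 9.78 and 10.30 in the old and 10.60, 10.33, 10.82, 10.41 and 10.32 in the young females. Every old sample except old female 1 lay below every young one, and the difference was -0.47 ± 0.17. EIF2S1, a subunit that stress kinases phosphorylate, went the other way (0.47 ± 0.20).

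Lists tied to ageing itself were near the background with all samples. Senescence and cell cycle arrest genes had 11 of 20 higher with a median of 0.064 (0.069 without the divergent samples). CDKN2A, which encodes p16 and ARF, read 8.45, 8.76, 8.29, 8.91 and 9.33 in the old and 7.79, 8.70, 8.38, 8.49 and 8.5 in the young females. Old female 6 was highest, young female 1 lowest, the rest overlapped, and the difference was 0.38 ± 0.25 (0.18 without the divergent samples). Sirtuins, FOXO factors and longevity kinases had a median of 0.073 (-0.084 without the divergent samples). MTOR, a kinase of growth control that was dim here, had a higher mean (0.61 ± 0.27), as did PDPK1, a kinase upstream of AKT (0.61 ± 0.23, 0.29 without the divergent samples). FOXO3 had a lower one (-0.31 ± 0.17). DNA repair (median 0.025, 0.077 without the divergent samples), proliferation (median -0.035, 0.20 without the divergent samples, 16 of 25 dim) and antioxidant genes (median -0.051, 0.16 without the divergent samples) lay near 0 with all samples. SOD1, superoxide dismutase, differed by -0.34 ± 0.18 (-0.15 without the divergent samples). Metallothioneins had a median of -0.081, which turned to 0.33 without the divergent samples. HOX genes, which record position along the body, had a median of 0.098 (0.14 without the divergent samples), and 2 of 18 (11.1%, against 3.75% of all genes) had a p below 0.05, HOXC5 (-1.11 ± 0.48, -0.67 without the divergent samples) and HOXC10 (-1.02 ± 0.45), both dim and lower in old females.

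**Figure D3:**
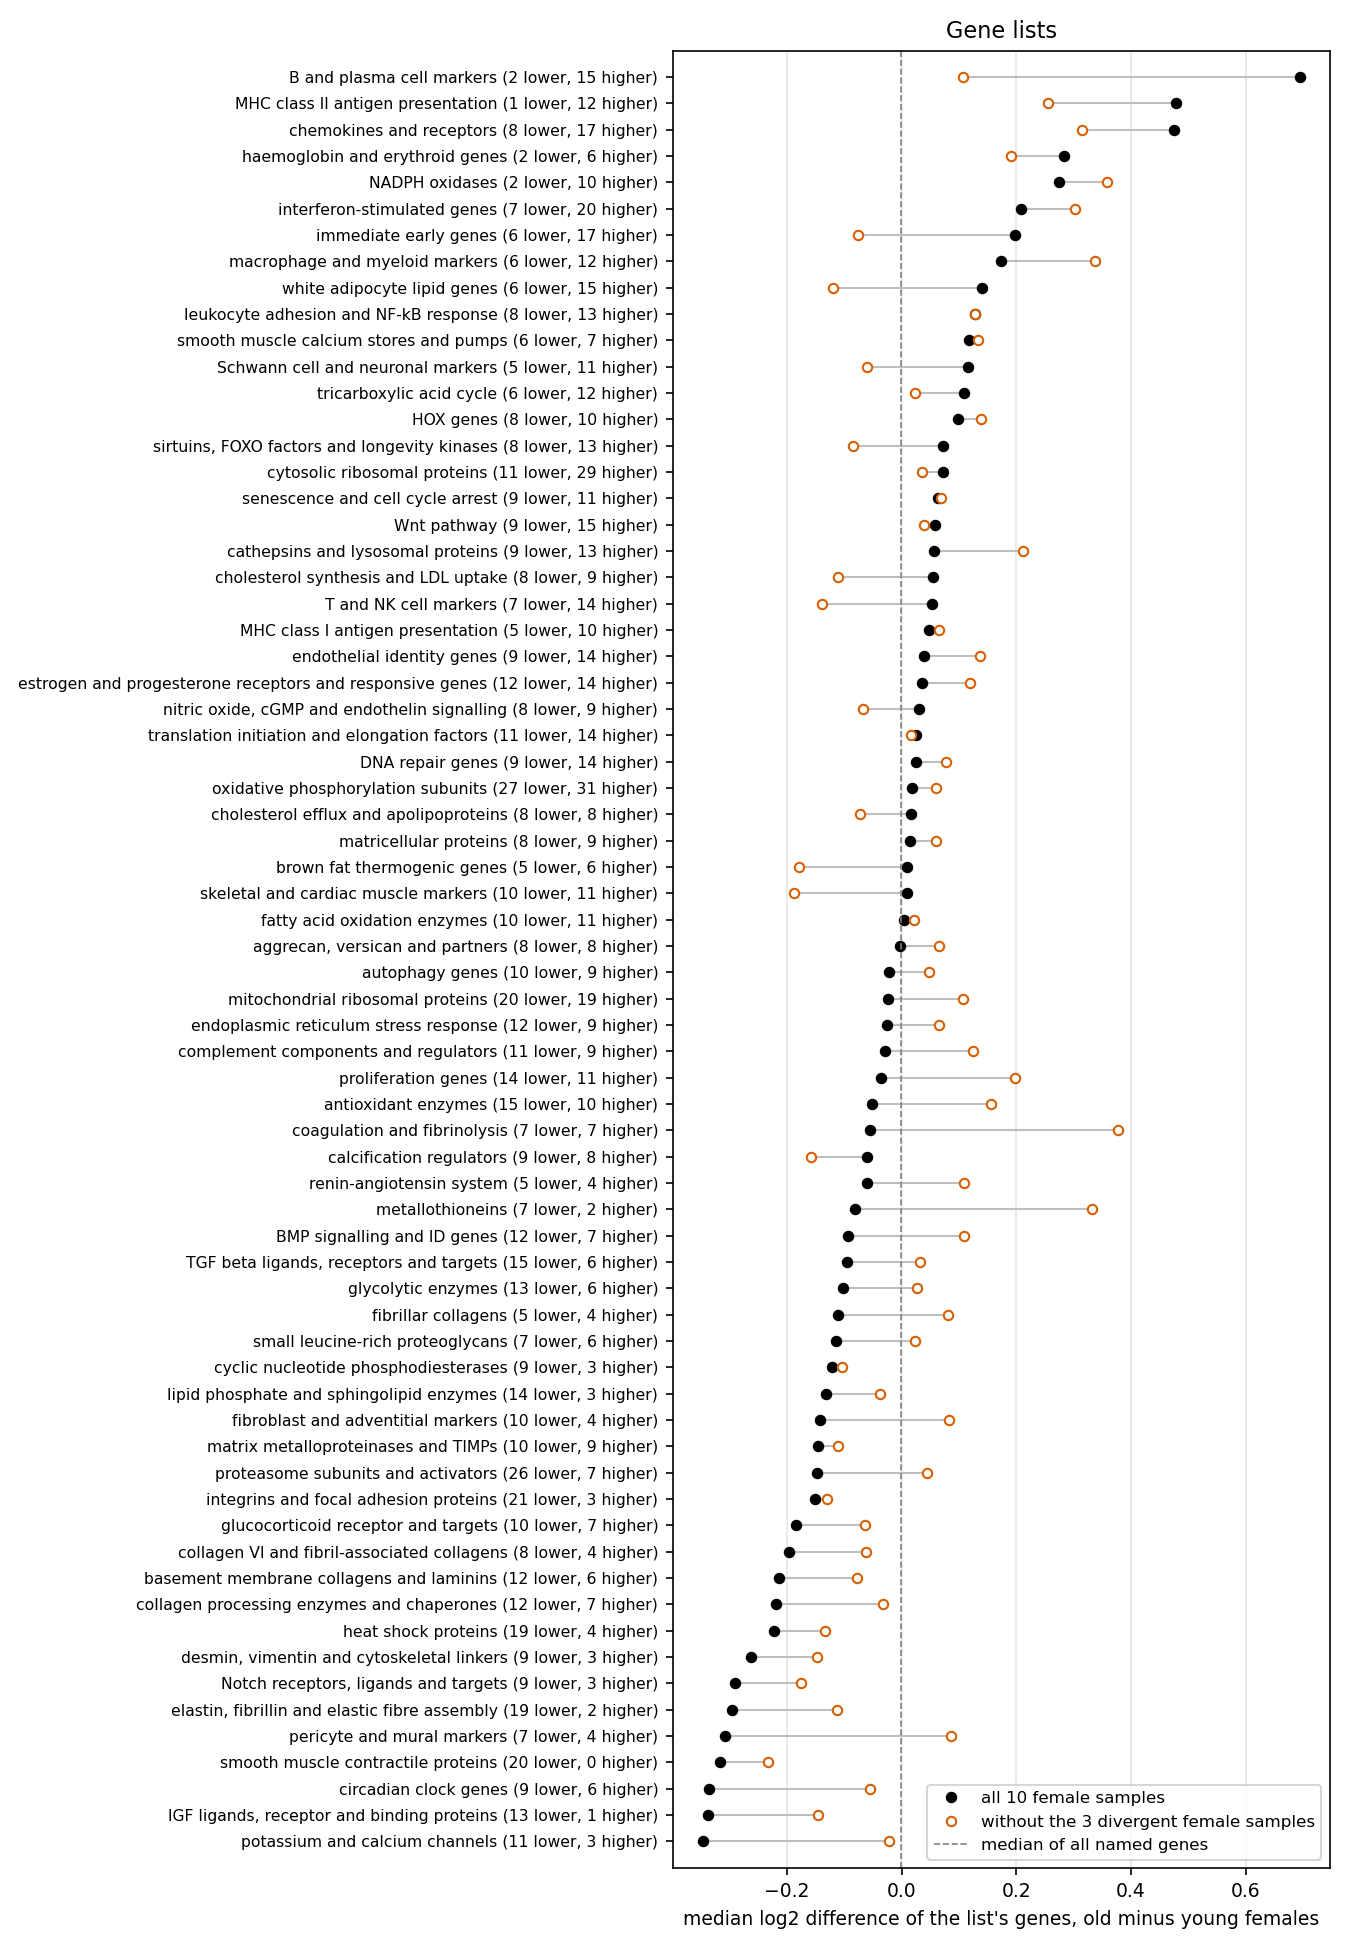
Median log2 difference, old minus young females, over the genes of each of 68 of the 69 lists, from all 10 samples (black) and without the 3 divergent samples (orange, open). The grey dashed line is the median of all 11963 genes; contractile proteins (20 lower, 0 higher) stay left of it in both settings, and the B and plasma cell median falls from 0.69 to 0.11.

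Some genes varied far more within the groups than most. The median SD within a group was 0.454 over the brighter probe sets. The 10 brighter genes with the largest SD within groups were UCP1, C3, GPM6A, SCD, PLA2G2A, CXADR, GUSBP11, IGLC1, HBB and FOS. UCP1, the uncoupling protein of brown fat, read 5.98, 7.67, 7.11, 11.99 and 11.53 in the old and 5.59, 13.28, 5.68, 6.97 and 10.75 in the young females. Old females 5 and 6 and young females 2 and 6 were high and the others low, and the difference was 0.40 ± 1.42 (-0.78 without the divergent samples). SCD, a desaturase of fat synthesis, read 8.67, 11.17, 7.82, 13.17 and 11.55 in the old and 6.84, 11.76, 6.17, 11.08 and 10.79 in the young females, and its high samples were old females 2, 5 and 6 and young females 2, 5 and 6, for a difference of 1.15 ± 1.18 (-0.23 without the divergent samples). C3, the central complement protein, read 9.52, 13.17, 12.84, 7.03 and 13.90 in the old and 9.77, 9.97, 14.41, 9.56 and 9.76 in the young females. Old females 2, 3 and 6 and young female 3 were high, and the difference was 0.60 ± 1.29 (0.029 without the divergent samples).

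PLA2G2A, a secreted phospholipase, read 10.07, 13.19, 14.45, 8.98 and 13.62 in the old and 9.48, 13.08, 15.05, 10.26 and 10.40 in the young females. It was high in the samples that were high for C3 and also in young female 2, with a difference of 0.41 ± 1.22. GPM6A, a membrane glycoprotein of neurons and mesothelium, read 7.32, 11.79, 8.90, 4.86 and 10.73 in the old and 7.73, 6.06, 10.98, 8.72 and 6.25 in the young females, and CXADR, an adhesion protein of epithelia, read 5.21, 11.17, 8.30, 6.06 and 9.81 in the old and 5.59, 5.11, 10.58, 6.59 and 7.14 in the young females. Both were high in the 3 divergent samples. Their differences were 0.77 ± 1.13 (-0.16 without the divergent samples) for GPM6A and 1.11 ± 1.08 (0.42 without the divergent samples) for CXADR. FOS, an immediate early gene, read 8.53, 13.31, 10.46, 7.92 and 13.45 in the old and 9.93, 8.58, 11.57, 10.88 and 7.65 in the young females, with the divergent samples highest and a difference of 1.01 ± 0.94 (-0.29 without the divergent samples). None of the 10 had a p below 0.05.

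**Figure D4:**
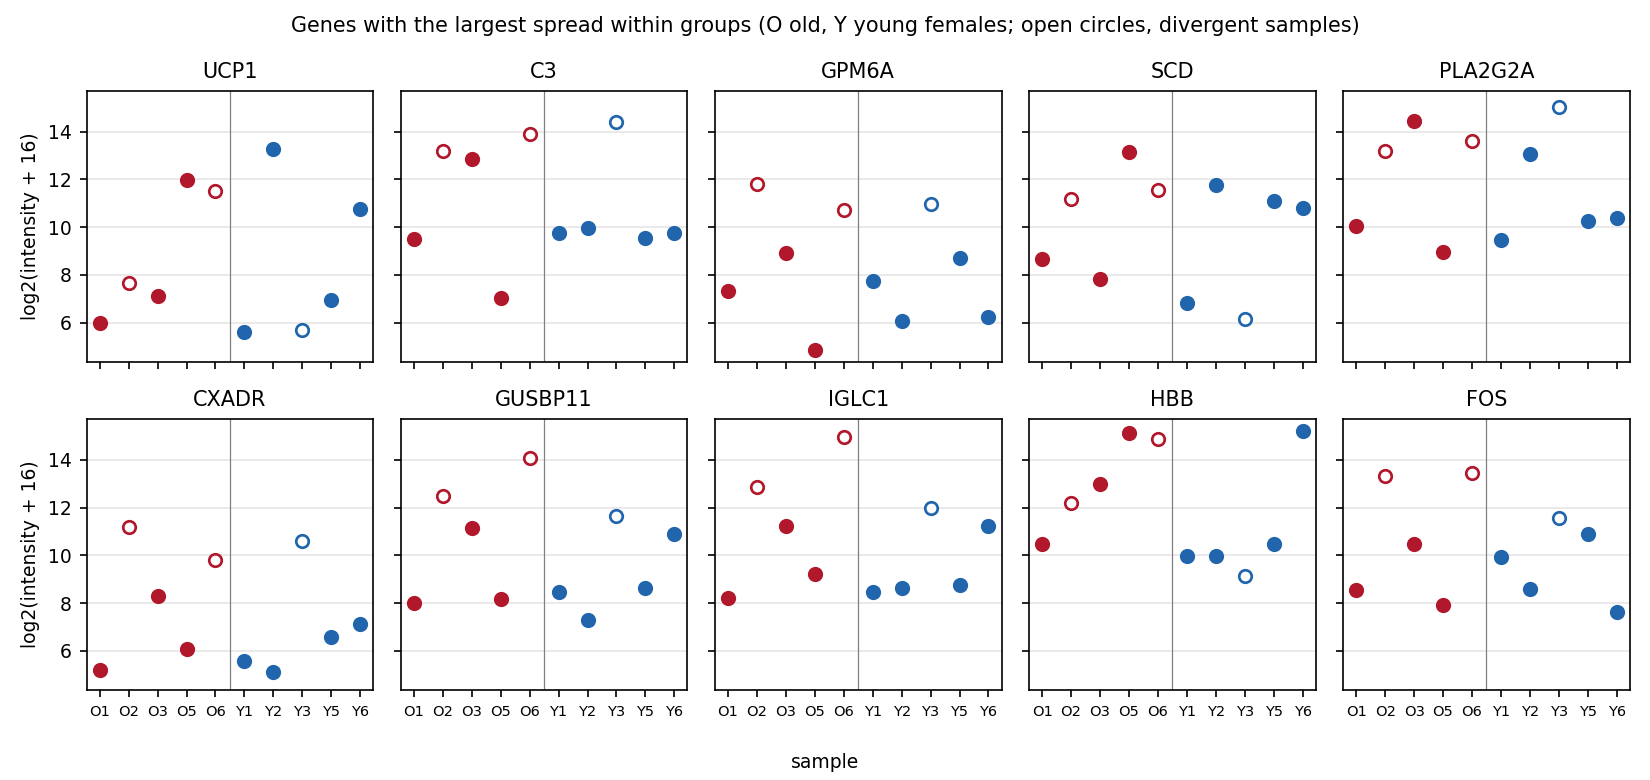
Level of the 10 brighter genes with the largest SD within the female groups, one panel each, as log2(intensity + 16) after quantile normalisation. Each point is a sample of the old (O, red) or young (Y, blue) females, and open points are divergent samples. C3, GPM6A and CXADR are high in the divergent samples O2, O6 and Y3, and C3 is also high in O3, which is not divergent. UCP1 is high in O5, O6, Y2 and Y6.

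The males, who share no sample with the females, gave a second set of age differences. Among probe sets at a p below 0.05 in females, 271 of the 456 higher ones (59.4%) and 254 of the 434 lower ones (58.5%) had the same sign in males, against 54.7% of all probe sets. Both sexes were scaled together, and the divergent samples lie in both. Of the 24 genes with the smallest p, 14 had the same sign in males and 10 the opposite, and 1 had a p below 0.05 in males. Whether the age difference itself differed between the sexes was tested by the interaction term. It passed the threshold on 0 of 22215 probe sets (0%), with a smallest limma adjusted p of 0.989 and 640 probe sets (2.88%) at an unadjusted p below 0.05.

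For the genes below, the interaction is the female minus the male difference, and its limma adjusted p was 0.989 or more. No rule fixed which genes are shown here. IRF4, SPP1 and TGFA were among those chosen above for a small p in these females. ACAN and FBN1 belong to a fixed set of genes. The others shown were among the members of a list with the smallest p in these females. A choice by small p can inflate the female difference and the interaction. IRF4 had a difference of 0.72 ± 0.25 in females and -0.50 ± 0.24 in males, and these differed by 1.22 ± 0.35. ENG differed by -0.47 ± 0.24 in females and 0.68 ± 0.23 in males (interaction -1.15 ± 0.34). PDPK1 gave 0.61 ± 0.23 and -0.56 ± 0.22 (interaction 1.17 ± 0.32), and ACAN 0.59 ± 0.53 and 3.10 ± 0.50 (interaction -2.5 ± 0.73). MMP9 gave 0.95 ± 0.42 in females against -0.56 ± 0.40 in males (interaction 1.51 ± 0.58). SPP1 had a higher mean in both sexes (2.25 ± 0.80 and 0.88 ± 0.76), as did TGFA (1.13 ± 0.40 and 0.59 ± 0.39). CRY1, PER2, TGFB2 and ENPP1 had lower means in both, with -0.85 ± 0.35 for TGFB2 and -0.86 ± 0.22 for ENPP1 in males. FBN1 was lower by close values, -0.75 ± 0.40 in females and -0.79 ± 0.38 in males, with the divergent samples of both sexes kept. Without them the female difference of FBN1 was -0.11, and the male one is not given here.

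**Figure D5:**
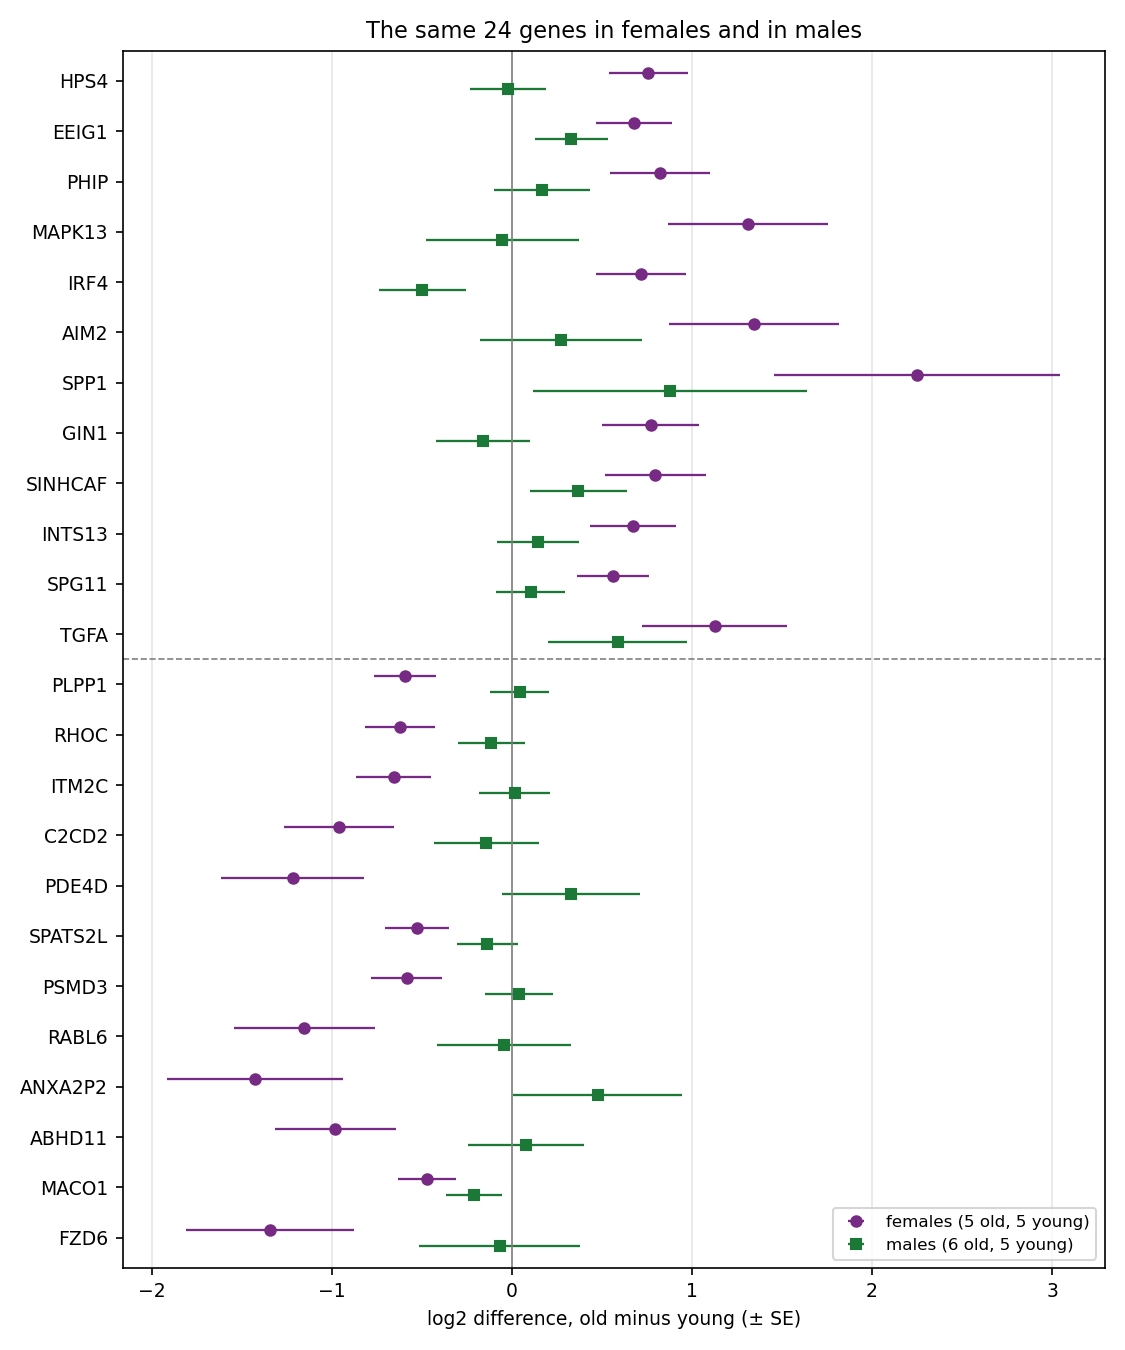
Log2 difference, old minus young, with its standard error, for the 24 brighter genes with the smallest p in females (circles, 5 old and 5 young) and for the same genes in males (squares, 6 old and 5 young). All female points lie away from 0 because the genes were chosen for that, and 10 of the 24 male points lie on the other side of 0.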

How the data were processed

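Gene expression was measured in RNA of the thoracic aorta on 24 single-colour arrays with biotin-labelled RNA, per the labels' protocols. The deposited intensity values are linear, and the authors had scaled them to a trimmed mean near 500 on each array, as the values show; details of how probe sets were summarised and scaled were not given in the sources used here. No precision per spot is known, so the number of arrays limits it.

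Values were turned into log2(intensity + 16) and quantile normalised over the 24 arrays, since array medians spanned 0.805 log2 units. Pairs of arrays with near-identical values, whose deviations correlated above 0.6, were averaged, leaving 21 samples. limma 3.58.1 in R 4.3.3 fitted 1 mean per group of age and sex over 22215 probe sets without the 62 controls, with an intensity trend, and p-values were adjusted by Benjamini-Hochberg over all of them. The interaction contrast came from the same fit. The scripts were tested on simulated data. Of the probe sets, 19064 carry 1 gene symbol, 1043 several and 2108 none in the platform annotation, and the brightest with 1 symbol stands for a gene.

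Genes are named by rule: the 12 higher and 12 lower with the smallest p and the 8 and 8 with the largest difference among those at or above the median level, up to 4 members with the smallest p of each list, the 10 with the largest spread, and a fixed set; of that set, CD68 has no probe set with 1 symbol and is not analysed here. One list of signalling genes is not reported here. The groups, lists and rules were chosen with earlier results of these data known. Members named outside the rule are marked as such.

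Alternatives were no quantile normalisation, centring on the median, offsets of 1 and 64, brighter probe sets alone, every array as a sample, females alone, no trend, array weights, leaving out or blocking divergent samples, the actin ratio as a covariate, the replicate number as a block, and leaving out each sample.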

Additional observations from a re-analysis of the deposited data

Results flagged for a closer look

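One sample lay far from the others of its group for 26 of the 322 combinations of gene and age group tested with Dixon's criterion (8.07%). The criterion's rate of about 1 in 20 holds for unselected, independent genes. Many genes here were chosen by their values or spread, and all share the same samples, so that rate is no baseline for this share. Each value below is that sample's log2(intensity + 16), followed by the nearest other sample of its group.

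Among the young females, the divergent sample 3 accounted for most of them. It was lowest for the smooth muscle and mural genes TAGLN (14.66 against 15.40), MYL9 (11.77 against 13.25), CSRP1 (12.90 against 13.88), RGS5 (12.33 against 14.08) and ITGB1BP2 (6.21 against 9.43), and for BHLHE41 (8.14 against 9.22) and SPATS2L (10.66 against 11.11). It was highest for the complement gene C3 (14.41 against 9.97), for the plasma cell gene MZB1 (7.99 against 6.45) and for TNFAIP3 (10.16 against 9.21) and PLAUR (8.66 against 7.51). Young female 6 was highest for HBB (15.21 against 10.47), young female 2 for CR2 (5.18 against 4.73), which is near the lowest levels measured, young female 1 lowest for ANXA2P2 (12.14 against 13.02), and young female 5 lowest for BAG3 (9.64 against 10.11) and FBLN1 (10.83 against 11.34).

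Among the old females, the divergent sample 6 was highest for CR2 (9.13 against 5.07), EGR3 (11.92 against 9.48), TNFAIP3 (11.56 against 10.09), NCF1 (6.84 against 5.55) and MVD (6.29 against 5.24) and lowest for FZD6 (4.97 against 7.52) and CHRD (6.06 against 8.35). Old female 3, which is not divergent, was highest for the collagens COL1A1 (15.28 against 13.65), COL3A1 (15.05 against 13.39) and COL6A3 (13.83 against 11.55).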

How the results depend on the processing

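The count of 0 probe sets past the limma adjusted p of 0.05 held under all 13 alternatives that kept every female sample or left out the divergent ones. Leaving out single samples gave 0 to 1. The 1 was ZNF518A without old female 1 (2.20 ± 0.30, limma adjusted p = 0.00836, against 1.85 ± 0.35 and 0.488 with all samples) and TNPO2 without old female 5 (-2.18 ± 0.33, limma adjusted p = 0.0404, against -1.67 ± 0.44 and 0.999), both dim. The 890 probe sets at an unadjusted p below 0.05 ranged from 688 to 1449 when single samples were left out, came to 316 when only the 11108 brighter probe sets were tested, and kept within 1.5 times of 890 under the other alternatives. The 112 probe sets whose groups did not overlap came to 73 without quantile normalisation, 38 among the brighter probe sets, 60 with every array as its own sample, 956 without the divergent samples and 198 to 360 without single samples, where fewer samples make overlap rarer by construction. The share of higher means among small p-values was 63.2% without quantile normalisation, 60.3% with arrays centred on their median and 36.4% among the brighter probe sets.

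Among the 161 genes with values in the report, the differences that changed sign without the divergent samples were those of VWF (0.020), COL5A2 (0.028), ANXA2 (0.10), COL1A1 (0.066), FOS (-0.29), CD163 (0.21), SCD (-0.23), GPM6A (-0.16) and UCP1 (-0.78). With every array as its own sample, C3 came to -0.32 and PLA2G2A to -0.49; with the actin ratio as a covariate they came to -0.33 and -0.38; with array weights UCP1 came to -0.19. Without single samples, the difference ran from -0.80 to 0.0041 for CD163, -0.28 to 0.033 for ACTA2, -0.053 to 0.44 for ESR1, -0.056 to 1.66 for C3, -0.19 to 1.25 for PLA2G2A, -0.51 to 0.14 for PECAM1 and -0.38 to 1.61 for UCP1. The cause was not tested. The interaction of age and sex, run under the same alternatives after the data were seen, gave 0 probe sets past the threshold in all 22, with 219 to 1118 at an unadjusted p below 0.05.

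With the replicate number as a block, 0 probe sets passed the threshold and 1012 had an unadjusted p below 0.05. Same-numbered old and young samples correlated in their deviations from the group means by -0.0073 to 0.51, and 4 of 10 samples correlated best with their own number. With so few samples, these values cannot decide whether a shared number marks a pairing. The deposited values hold no detection calls, and 5011 of 11963 genes lie below the median level, where signal and background cannot be separated. That level is a cut chosen here and not a detection limit. The Y-linked RPS4Y1, given above, ran past it in the females, so brighter genes close to it may also hold background.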
